A study of Homo sapiens with 6 samples.

Results

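Activins and TGF-β are secreted growth factors of the TGF-β superfamily, and 10 genes of this system were followed in 5637, an established human bladder cancer cell line: the activin subunit genes INHBA and INHBB, the ligand genes TGFB1 and TGFB2, the receptor genes TGFBR1 and TGFBR2, the inhibitory SMAD gene SMAD7, and the genes of the secreted binding proteins FST, FSTL3 and WFIKKN1. They were chosen by symbol, with earlier results of these data known, from the 61860 genes of the deposited count table. Each had 1 row there, and all 10 passed the filter on low counts that left 17372 genes for testing. RNA was sequenced from 6 libraries of cells grown in medium with fetal bovine serum. The 3 libraries labelled siYTHDC1 were read as cells with YTHDC1 silenced, and the 3 labelled siNC are their control group. YTHDC1 reads the RNA mark N6-methyladenosine (m6A) in the nucleus, and the series' title places it in glucose metabolism and tumour progression. The labels mention a plasmid, a transfection and an infection for both groups alike, so the reagent is unclear, and whether each replicate was its own culture is not stated, so p-values reflect the scatter of these 6 libraries alone, possibly technical in origin.

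Ligands of this family are made as precursors, cut by furin-type proteases and secreted as dimers. A dimer brings type II receptors such as TGFBR2 together with type I receptors such as TGFBR1, and the type I receptor then phosphorylates SMAD proteins that carry the signal into the nucleus. Activins and TGF-β signal mainly through SMAD2 and SMAD3, whereas bone morphogenetic proteins (BMPs) use SMAD1 and SMAD5. Follistatin (FST) and its relative FSTL3 wrap around activins and block them, WFIKKN1 binds the related factors myostatin and GDF11, and SMAD7 blocks type I receptors from within the cell. In epithelial cells the system is known for restraining growth and for loosening cell contacts.

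The stretches before the RefSeq transcription starts of 5 of these genes are shown because some genes that rose together differ in sequence there. FSTL3 is shown as a gene that fell, and of TGFBR2 the first of 2 starts is used. The stretches lie outside GENCODE release 29 exons and are written 5′ to 3′ on the gene's strand. Capitals mark GGGCGG on either strand (the GC box bound by Sp1, overlapping copies included). The INHBA stretch is chr7:41703109-41703340 (minus strand), that of INHBB chr2:120345886-120346135 (plus), that of FSTL3 chr19:676142-676364 (plus), that of TGFB1 chr19:41353923-41354168 (minus) and that of TGFBR2 chr3:30606106-30606355 (plus), all on GRCh38.p14.
INHBA: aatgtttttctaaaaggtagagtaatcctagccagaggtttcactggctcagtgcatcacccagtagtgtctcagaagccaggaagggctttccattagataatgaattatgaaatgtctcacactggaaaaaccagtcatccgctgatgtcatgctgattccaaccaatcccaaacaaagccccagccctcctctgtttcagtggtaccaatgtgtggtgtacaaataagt
INHBB: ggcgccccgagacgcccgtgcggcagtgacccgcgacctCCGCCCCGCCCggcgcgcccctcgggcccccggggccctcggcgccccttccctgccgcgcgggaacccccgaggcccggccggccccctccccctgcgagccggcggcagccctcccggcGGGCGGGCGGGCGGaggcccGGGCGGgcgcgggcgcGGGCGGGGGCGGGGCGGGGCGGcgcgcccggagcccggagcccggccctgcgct
FSTL3: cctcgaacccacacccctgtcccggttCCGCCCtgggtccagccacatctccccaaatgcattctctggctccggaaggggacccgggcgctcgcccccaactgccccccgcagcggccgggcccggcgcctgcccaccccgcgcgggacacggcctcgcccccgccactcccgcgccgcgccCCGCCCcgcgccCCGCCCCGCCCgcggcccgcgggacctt
TGFB1: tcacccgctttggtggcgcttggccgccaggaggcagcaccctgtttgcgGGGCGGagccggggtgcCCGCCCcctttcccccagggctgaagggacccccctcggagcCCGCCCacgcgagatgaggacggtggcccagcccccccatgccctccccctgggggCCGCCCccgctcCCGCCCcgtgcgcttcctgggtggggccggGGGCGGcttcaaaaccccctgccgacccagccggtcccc
TGFBR2: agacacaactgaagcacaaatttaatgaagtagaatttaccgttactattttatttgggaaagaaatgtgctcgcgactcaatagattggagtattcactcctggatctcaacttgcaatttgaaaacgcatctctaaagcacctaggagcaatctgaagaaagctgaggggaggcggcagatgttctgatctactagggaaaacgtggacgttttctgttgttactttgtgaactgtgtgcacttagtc

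The printed stretches of the activin subunit genes are unlike. That of INHBA lies before its RefSeq start but inside the gene's GENCODE span (7:41667168-41705834). The sequence before the upstream end of that span was not examined. The INHBA stretch of 232 bases is 44.0% G and C and holds 0 copies of GGGCGG, whereas that of INHBB is 89.6% G and C and holds 10. The printed stretch of TGFBR2 is like that of INHBA in this, with 40.8% and 0 copies. The 151 bases before its other start, which are not printed, are 56.3% G and C and hold 1 copy. TGFB1 holds 6 copies in 246 bases at 77.2% and FSTL3 4 copies in 223 bases at 80.3%. Of all 35116 RefSeq windows, 39.3% to 42.6% hold GGGCGG when cut to these positions, and the median window of 250 bases is 58.0% G and C. Searched on both strands, CAGAC (the core box bound by SMAD3 and SMAD4), TGANTCA (AP-1) and TATAAA were in 0 of the 5 stretches, where up to 38.0%, 6.57% and 10.7% of all windows hold them. Among the stretches of other genes of the set, which are not printed, CAGAC was found before starts of TGFB2, TGFBR1 and SMAD7, and TATAAA before a start of SMAD7. A match or its absence describes only these letters.

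The libraries were alike in depth. Total counts ran from 33223480 to 35607577, and Pearson's r of log2 CPM (counts per 1000000) across genes was 0.989 to 0.990 within groups and 0.972 to 0.974 between them (genes are not independent replicates). The row of YTHDC1 itself overlapped between the groups: its counts, in replicate order, were 50, 786 and 55 for siNC against 161, 18 and 14 for siYTHDC1. The fitted change in YTHDC1 on the log2 scale was -2.20 ± 0.69 (SE; edgeR adjusted p = 0.00864), but 0.31 without siNC replicate 2 (edgeR adjusted p = 0.691). The call was also lost without siYTHDC1 replicate 2 (edgeR adjusted p = 0.0666) and in limma-voom (adjusted p = 0.0861). Groups are therefore named by their labels alone, and a rise or fall means higher or lower values under the siYTHDC1 label than under the siNC label. Among markers of the cell type, the keratin genes KRT5, KRT7, KRT8, KRT18 and KRT19 were abundant, and the summed level of 11 epithelial and urothelial markers was 10858 to 11028 CPM in siNC and 6214 to 6326 CPM in siYTHDC1. Of them 6 fell, namely these keratin genes and GATA3. The 2 that rose were EPCAM and TP63, by 0.14 and 0.17 on the log2 scale, and CDH1 was not called (edgeR adjusted p = 0.818). The urothelial differentiation genes UPK2 and UPK3A were near 0. The 7 fibroblast markers summed to 79.5 to 85.8 CPM and 93.2 to 98.8 CPM, nearly all from COL1A1, with DCN at 0 in every library. Summed immune markers were 6.62 to 8.03 CPM and 4.71 to 6.498 CPM, with CD3E and CD68 at 0 in every library. Nearly all of this sum came from CD14, which fell (edgeR adjusted p = 0.0347). Summed endothelial markers were 5.58 to 7.99 CPM and 6.00 to 7.51 CPM. Most of this sum came from PECAM1, which was not called (edgeR adjusted p = 0.236). VWF fell with overlapping libraries (log2 fold change -0.98 ± 0.38, SE; edgeR adjusted p = 0.0293). What part the keratin fall has in the results below was not tested, and in bulk RNA fewer cells of a kind and less RNA per cell cannot be told apart.

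Of the 10 genes, 7 rose, 2 fell and 1 was not called. The rises were INHBA, INHBB, TGFB1, TGFB2, TGFBR2, FST and WFIKKN1, and the falls were TGFBR1 and FSTL3. A gene was called at an adjusted p under 0.05, adjusted over all genes tested, in edgeR's quasi-likelihood test. Calls were common in this comparison: 53.4% of all genes tested were called, 26.3% as rises and 27.1% as falls. In 9 of the 10 the libraries of the groups did not overlap, as in 59.3% of all genes tested. The median log2 fold change was 0.45 over the 10 genes and near 0 over all genes tested. Because the 10 genes were chosen with earlier results of these data known, these counts and this median do not describe the wider family. INHBA and WFIKKN1 changed by at least 1 on the log2 scale, which 7.85% of all genes tested did with a call.

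**Figure D1:**
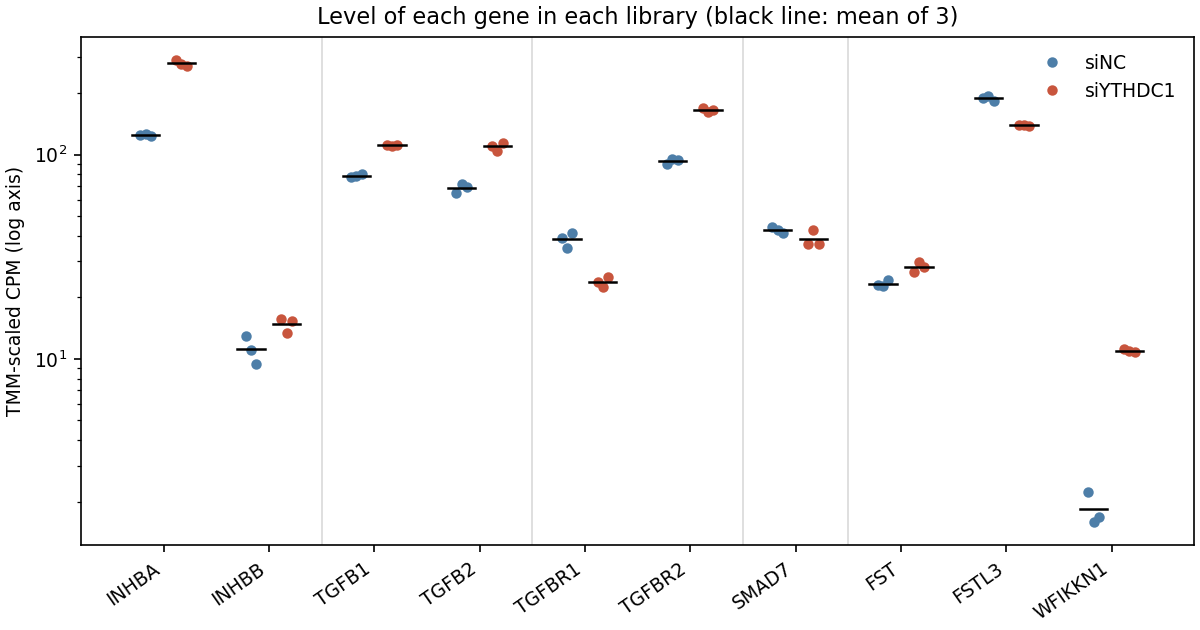
Level of each of the 10 genes in each library, in TMM-scaled CPM on a log axis, with siNC in blue, siYTHDC1 in red and the mean of 3 libraries as a black line. INHBA, INHBB, TGFB1, TGFB2, TGFBR2, FST and WFIKKN1 were higher in every siYTHDC1 library, TGFBR1 and FSTL3 were lower, and the SMAD7 libraries overlapped.

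INHBA and INHBB encode the βA and βB subunits, which pair to form activins and, with the α subunit, inhibins. INHBA (ENSG00000122641, hg38 7:41667168-41705834, minus strand, up to 5 exons) stood at 125, 126 and 124 CPM in the siNC libraries, in replicate order here and below, and at 291, 278 and 273 CPM in the siYTHDC1 libraries. The siYTHDC1 libraries were thus all above the siNC libraries, by 2.25-fold on average, and the spread within either group was small. This is a log2 fold change of 1.17 ± 0.03 (SE, n = 3 per group; edgeR adjusted p = 9.17e-21). The antisense gene INHBA-AS1 runs through the locus without sharing exonic bases and rose too, from 0.793 ± 0.149 to 2.20 ± 0.377 CPM (SD, n = 3 per group; log2 fold change 1.47 ± 0.31, SE; edgeR adjusted p = 1.97e-04). INHBB (ENSG00000163083, hg38 2:120346143-120351808, plus strand, up to 2 exons) was at 12.9, 11.1 and 9.48 CPM in siNC and 15.7, 13.3 and 15.3 CPM in siYTHDC1. The lowest siYTHDC1 library was only just above the highest siNC library. This is a log2 fold change of 0.41 ± 0.11 (SE, n = 3 per group; edgeR adjusted p = 0.00222).

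TGFB1 encodes the most widely expressed TGF-β and TGFB2 an isoform prominent in development. TGFB1 (ENSG00000105329, hg38 19:41301587-41353911, minus strand, up to 7 exons) was at 77.8, 78.3 and 80.6 CPM in siNC and 111, 111 and 112 CPM in siYTHDC1. The groups were well apart and the siYTHDC1 libraries nearly equal (log2 fold change 0.50 ± 0.04, SE, n = 3 per group; edgeR adjusted p = 3.2e-11). HNRNPUL1 exons on the other strand cover 6.64% of TGFB1's exonic bases, and HNRNPUL1 fell by 0.22 on the log2 scale, and its upstream neighbour B9D2, 510 bases away on the same strand, fell by 1.07. CCDC97, which overlaps the locus, fell by 0.34, while TMEM91 rose narrowly with overlapping libraries (0.36 ± 0.15, SE; edgeR adjusted p = 0.0471). The TMEM91 call was lost without siNC replicate 2 (edgeR adjusted p = 0.117) or 3 (0.264), or without siYTHDC1 replicate 1 or 2 (0.110 each), and with all 6 libraries in DESeq2 (adjusted p = 0.0651) or with no low-count filter (edgeR adjusted p = 0.0710). TGFB2 (ENSG00000092969, hg38 1:218346235-218444619, plus strand, up to 8 exons) was at 65.2, 71.5 and 69.7 CPM in siNC and 111, 105 and 114 CPM in siYTHDC1. It was higher in every siYTHDC1 library, with a log2 fold change of 0.68 ± 0.05 (SE, n = 3 per group; edgeR adjusted p = 9.3e-13). The single-exon RNA gene TGFB2-OT1 covers 26.6% of the exonic bases of TGFB2 on the same strand and was listed at 0 counts in every library, so how reads from that stretch were assigned is not known. The antisense gene TGFB2-AS1, 557 bases upstream, had 3, 0 and 6 counts in siNC and 9, 12 and 20 in siYTHDC1, too few to pass the filter.

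The receptor genes moved in opposite directions. TGFBR2 encodes the type II receptor, which binds TGF-β first. Its row (ENSG00000163513, hg38 3:30606502-30694142, plus strand, up to 8 exons) was at 90.2, 95.3 and 94.7 CPM in siNC and 169, 162 and 166 CPM in siYTHDC1. All siYTHDC1 libraries were higher, by 1.78-fold on average (log2 fold change 0.83 ± 0.04, SE, n = 3 per group; edgeR adjusted p = 1.75e-16). TGFBR1 encodes the type I receptor kinase. It (ENSG00000106799, hg38 9:99104038-99154192, plus strand, up to 9 exons) was at 39.2, 34.9 and 41.3 CPM in siNC and 23.7, 22.4 and 25.1 CPM in siYTHDC1. All siYTHDC1 libraries were lower, by 1.62-fold on average (log2 fold change -0.70 ± 0.07, SE, n = 3 per group; edgeR adjusted p = 4.95e-09).

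SMAD7, which TGF-β itself induces as a feedback inhibitor, was not called. Its row (ENSG00000101665, hg38 18:48919853-48952052, minus strand, up to 4 exons) was at 44.4, 42.8 and 41.1 CPM in siNC and 36.7, 42.7 and 36.4 CPM in siYTHDC1. The value of siYTHDC1 replicate 2 lay among the siNC values. The fold change on the log2 scale was -0.15 ± 0.06 (SE, n = 3 per group; edgeR adjusted p = 0.0536). It passed in 5 of 15 alternative fits, all with the same sign, and was -0.22 without siYTHDC1 replicate 2 (edgeR adjusted p = 0.00725; alternatives ran from this value to 0.249).

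Of the binding proteins, the activin antagonists diverged. FST (ENSG00000134363, hg38 5:53480409-53487134, plus strand, up to 6 exons) was at 23.0, 22.6 and 24.3 CPM in siNC and 26.5, 29.9 and 28.0 CPM in siYTHDC1. The groups did not overlap, but the rise was the smallest of the 7 (log2 fold change 0.27 ± 0.07, SE, n = 3 per group; edgeR adjusted p = 0.00238). FSTL3 (ENSG00000070404, hg38 19:676365-683399, plus strand, up to 5 exons) was at 189, 193 and 184 CPM in siNC and 140.5, 139.8 and 137.8 CPM in siYTHDC1 replicates 2, 1 and 3. It was lower in every siYTHDC1 library, by 1.35-fold on average (log2 fold change -0.44 ± 0.03, SE, n = 3 per group; edgeR adjusted p = 1.77e-11).

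WFIKKN1 had the largest change of the 10 genes, larger than that of 99.6% of all genes tested. Its row (ENSG00000127578, hg38 16:629239-634116, plus strand, up to 2 exons) held only 79, 55 and 58 counts in siNC but 389, 363 and 371 counts in siYTHDC1. In CPM these were 2.23, 1.60 and 1.68 against 11.1, 10.9 and 10.8. The rise was 5.97-fold and seen in every siYTHDC1 library (log2 fold change 2.58 ± 0.15, SE, n = 3 per group; edgeR adjusted p = 7.47e-14). Of its 2 annotated transcripts, 1 has 2 exons in 2028 bases, and the other is a single exon of 4878 bases across the whole locus, so a count over exons may include reads from its intron and its upstream flank. RAB40C ends within that flank on the same strand, shares 34 exonic bases with WFIKKN1 and was lower in siYTHDC1, at 57.3 ± 3.60 against 68.6 ± 4.95 CPM (SD, n = 3 each; edgeR adjusted p = 2.98e-04). Downstream, METTL26 on the other strand fell by 0.37 on the log2 scale and MCRIP2, 2701 bases away on the same strand, rose (0.82 ± 0.07, SE; edgeR adjusted p = 1.62e-10). Which part of the locus gave the added reads was not tested.

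**Figure D2:**
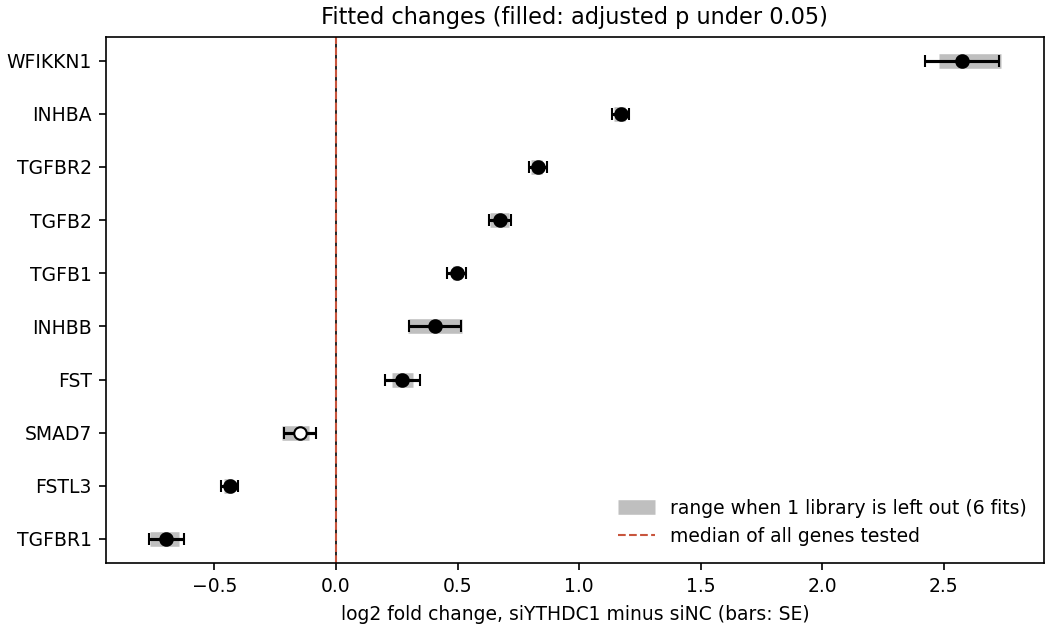
Fitted log2 fold change of each gene (siYTHDC1 minus siNC) with its SE as a bar, and in grey the range over the 6 fits that each left out 1 library. All genes but SMAD7 (open circle) passed, and each gene kept its sign when any single library was left out.

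To compare levels between genes, CPM was divided by the length of each gene's merged exons in kb. In siNC, FSTL3 was highest at 61.6 ± 1.51 CPM per kb (SD, n = 3), followed by TGFB1 at 24.4 ± 0.462, TGFBR2 at 19.9 ± 0.582, INHBA at 15.03 ± 0.145 and TGFB2 at 13.4 ± 0.630. The lower levels per kb were 8.50 ± 0.323 for SMAD7, 7.85 ± 0.289 for FST, 5.62 ± 0.478 for TGFBR1, 3.48 ± 0.535 for INHBB and 0.376 ± 0.0709 for WFIKKN1. No neighbours in this order had overlapping libraries. In siYTHDC1, FSTL3 was still highest at 45.4 ± 0.450 CPM per kb, but TGFBR2 (35.3 ± 0.754), TGFB1 (34.4 ± 0.138) and INHBA (33.8 ± 1.13) had come close to it and to each other. The libraries of INHBA overlapped with those of TGFB1 and with those of TGFBR2. TGFB2 followed at 21.3 ± 0.946, FST at 9.49 ± 0.573, SMAD7 at 7.67 ± 0.699, INHBB at 4.61 ± 0.398, TGFBR1 at 3.47 ± 0.194 and WFIKKN1 at 2.25 ± 0.0320 CPM per kb. With its 2-exon transcript as length, WFIKKN1 was at 0.904 ± 0.170 CPM per kb in siNC, still the lowest, and at 5.40 ± 0.0770 in siYTHDC1, above INHBB and TGFBR1.

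The balance between activin subunit and antagonist transcripts was read as a ratio of counts per kb within each library, which no scaling between libraries affects. These ratios restate the changes above and were given no test. For INHBA to FSTL3 the siNC ratios were 0.244, 0.241 and 0.248 and the siYTHDC1 ratios 0.770, 0.732 and 0.732, a 3.05-fold difference. INHBA to FST was 1.94, 1.99 and 1.82 against 3.93, 3.32 and 3.49. The βA transcript was thus scarcer per kb than that of FSTL3 in every library, but by much less in siYTHDC1. FST to FSTL3 went from 0.126, 0.121 and 0.136 to 0.196, 0.220 and 0.210, and INHBA to INHBB from 3.73, 4.39 and 5.04 to 7.17, 8.06 and 6.87. TGFBR2 to TGFBR1 was 3.35, 3.97 and 3.33 in siNC and 10.4, 10.5 and 9.65 in siYTHDC1, a 2.88-fold difference. TGFB1 to TGFB2 moved little, from 1.90, 1.74 and 1.84 to 1.60, 1.68 and 1.55, since both ligand genes rose.

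**Figure D3:**
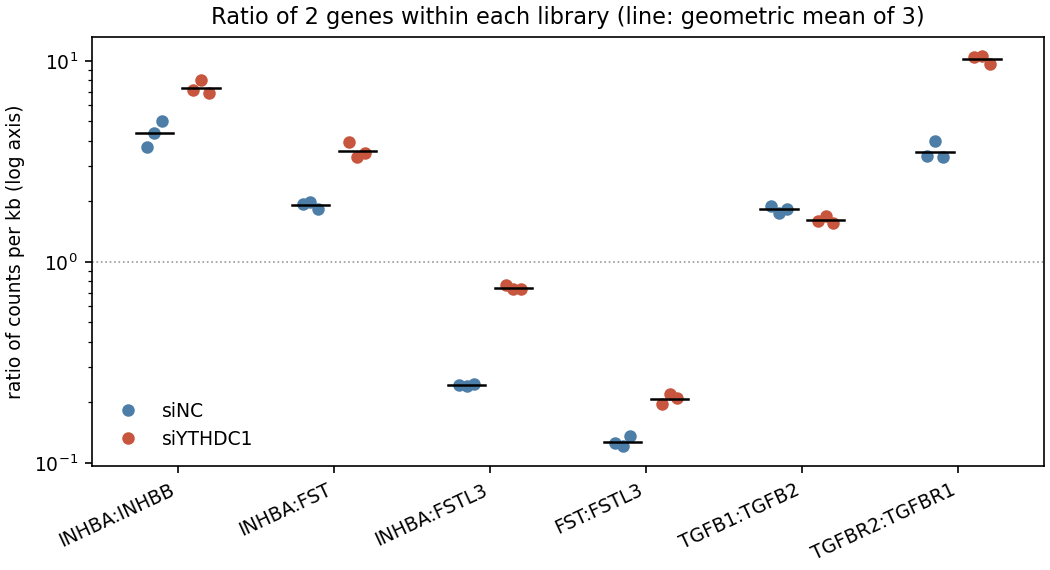
Ratio of counts per kb of 2 genes within each library, on a log axis, with siNC in blue, siYTHDC1 in red and the geometric mean of 3 libraries as a black line. INHBA to FSTL3 rose from about 0.244 to 0.745 and TGFBR2 to TGFBR1 from 3.54 to 10.2.

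Since YTHDC1 binds m6A, which is often found in the letters GGACT, these were counted on the sense strand of the longest GENCODE transcript of each gene. WFIKKN1 held 8 copies in its 4878-base transcript (1.64 per kb), more per kb than 82.8% of 16973 tested genes, and TGFB1 held 4 (1.45 per kb). That WFIKKN1 transcript is the single exon across the whole locus, and the copies in its 2-exon transcript of 2028 bases were not counted. TGFB2 with 1 copy (0.198 per kb) and INHBA with 2 (0.330 per kb) were at the low end. TGFBR1 and FSTL3 had 0.460 and 0.393 copies per kb. The median was 0.846 per kb over the 10 genes and 0.927 over tested genes, and 89.0% of tested genes held at least 1 copy. These letters do not show where RNA was methylated.

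The rest of the pathway was described by 7 lists holding 114 genes, of which 96 were tested, 38 rose and 28 fell. Of the tested genes 68.8% were called, against 53.4% of all genes tested, of which 26.3% rose and 27.1% fell. The shares called were 60.0% for other ligands, 66.7% for antagonists and co-receptors, 61.5% for latency and activation, 44.4% for other receptors and 60.0% for SMADs and their modulators. The lists were chosen with earlier results of these data known, and 10 genes stand in 2 lists. Of 22 other ligand genes, 15 were tested, 7 rose and 2 fell, with a median log2 fold change of 0.22. BMP6 rose from 1.13 ± 0.385 to 4.28 ± 0.385 CPM and the stress-induced cytokine gene GDF15 from 20.5 ± 0.721 to 59.0 ± 1.49 CPM (SD, n = 3 per group, with log2 fold changes of 1.92 ± 0.25 and 1.53 ± 0.06, SE). INHA, which encodes the α subunit that turns activins into inhibins, was scarce and went from 0.949 ± 0.145 to 1.72 ± 0.303 CPM (edgeR adjusted p = 0.0223, and up to 0.0825 without siYTHDC1 replicate 3). Its call was also lost without siNC replicate 1 (edgeR adjusted p = 0.0778) and without siYTHDC1 replicate 1 (0.0612). AMH fell by 1.33 on the log2 scale, with means of 3.36 ± 0.583 CPM in siNC and 1.33 ± 0.435 CPM in siYTHDC1 (SD, n = 3 each). BMP4 fell by 0.28 on the log2 scale with overlapping libraries, and its call was lost without siNC replicate 2 (edgeR adjusted p = 0.0850) or siYTHDC1 replicate 3 (0.0565). BMP2 rose by 0.84 ± 0.06 (SE). Besides it, BMP1, which encodes a metalloproteinase in spite of its name, GDF11 and GDF7 rose by 0.15, 0.19 and 0.47, these 4 genes being named after their values were seen. The GDF11 call was lost without replicate 2 of siNC (edgeR adjusted p = 0.0563) or of siYTHDC1 (0.0910), and the GDF7 call without siNC replicate 1 (0.111) or siYTHDC1 replicate 1 (0.136) or 2 (0.0782).

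Among 20 other antagonists and co-receptors, 9 were tested, 3 rose and 3 fell (CRIPTO is in the table as TDGF1 and was not among those tested). NOG, which encodes the BMP antagonist noggin, rose to 31.8 ± 2.23 CPM in siYTHDC1 against 9.42 ± 1.83 CPM in siNC (SD, n = 3 per group; log2 fold change 1.75 ± 0.10, SE; edgeR adjusted p = 4.96e-14). The follistatin-like gene FSTL1 rose from 568 ± 9.03 to 757 ± 9.12 CPM. The co-receptor gene TGFBR3 passed narrowly (0.39 ± 0.16, SE; edgeR adjusted p = 0.0473) and in 5 of 15 alternative fits only, with the call lost whenever 1 library other than siYTHDC1 replicate 2 was left out (edgeR adjusted p of up to 0.141, without siYTHDC1 replicate 1). BAMBI, a decoy receptor gene, fell by 0.48, the co-receptor gene ENG by 0.40 and the BMP-binding protein gene TWSG1 by 0.28 on the log2 scale. In the list of latency and activation, 6 of 13 genes rose and 2 fell. Among genes of activators of latent TGF-β, the thrombospondin gene THBS1 rose from 162 ± 7.13 to 360.3 ± 1.78 CPM and the integrin gene ITGB6 from 128 ± 0.487 to 267 ± 13.3 CPM (SD, n = 3 each). ITGAV, which encodes the partner chain of ITGB6 and ITGB8, and ITGB8 were not called (log2 fold changes 0.06 ± 0.04 and 0.03 ± 0.05, SE; edgeR adjusted p = 0.173 and 0.634). The latent TGF-β binding protein genes moved apart. LTBP3 fell by 0.69 on the log2 scale, whereas LTBP2, LTBP1 and LTBP4, named after their values were seen, rose by 0.65, 0.35 and 0.34. NRROS, whose product holds latent TGF-β on cell surfaces, fell by 0.82. ITGB6 shares 20.6% of its exonic bases with another gene on the same strand.

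Of 11 other receptor genes, 9 were tested, 2 rose and 2 fell. The activin type II receptor genes moved apart, ACVR2B rising by 0.44 ± 0.07 (SE) and ACVR2A falling by 0.49 on the log2 scale. TGFBR3, described above, was the other rise. BMPR2 fell by 0.18 (edgeR adjusted p = 0.0155), a call lost without siYTHDC1 replicate 1 (edgeR adjusted p = 0.133) or siNC replicate 1 (0.0664). SMAD genes and their modulators fell in 11 of 20 and rose in 1, where 27.1% of all genes tested fell and 26.3% rose. Their median log2 fold change was small, at -0.17. TRIM33, an E3 ligase that acts on SMAD4, fell by 0.72, the inhibitory SMAD gene SMAD6 by 0.69 and the corepressor gene TGIF1 by 0.57 on the log2 scale. NEDD4L, whose product marks activated SMAD2 and SMAD3 for degradation, was the single rise (0.41 ± 0.04, SE).

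Target genes of the SMAD branches, in lists chosen with earlier results of these data known, had medians of opposite sign. Of 28 SMAD2/3 target genes 20 rose, 4 fell and 4 were not called, where 26.3% of all genes tested rose and 27.1% fell. The median log2 fold change was 0.51, and the called rises ran from 0.09 to 3.67 on the log2 scale. ANGPTL4 rose from 0.728 ± 0.195 to 9.28 ± 0.714 CPM and the growth factor gene PDGFB from 21.6 ± 1.12 to 45.8 ± 3.05 CPM (SD, n = 3 each). The largest rise, that of ANGPTL4, started from only 22, 21 and 33 counts in siNC. JUNB and CDKN1A fell by 0.80 each, TGIF1 by 0.57 and the fibronectin gene FN1 by 0.48 on the log2 scale. For JUNB, 14.2% of exonic bases lie under exons on the other strand. Many genes of this list also answer to other signals such as hypoxia, MAP kinases or p53. Of 10 SMAD1/5 target genes 3 rose and 7 fell, with a median of -0.52. ID1, the classic BMP target that encodes an inhibitor of differentiation factors, fell to 484 ± 8.91 CPM in siYTHDC1 against 1349 ± 3.76 CPM in siNC (SD, n = 3 per group; log2 fold change -1.48 ± 0.02, SE; edgeR adjusted p = 3.02e-26). ATOH8 fell by 0.74, and ID3, SMAD6, ID2, BAMBI and GATA2 fell by 0.22 to 0.71, those but SMAD6 and BAMBI being named after their values were seen. The ID2 call was lost without siNC replicate 2 (edgeR adjusted p = 0.0927) or 3 (0.100) or siYTHDC1 replicate 1 (0.127). The rises were NOG, ID4 (1.08 ± 0.29, SE) and the Notch effector gene HEY1 (0.51 ± 0.10, SE). SMAD7, an SMAD2/3 target outside these lists, was at the values given above.

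**Figure D4:**
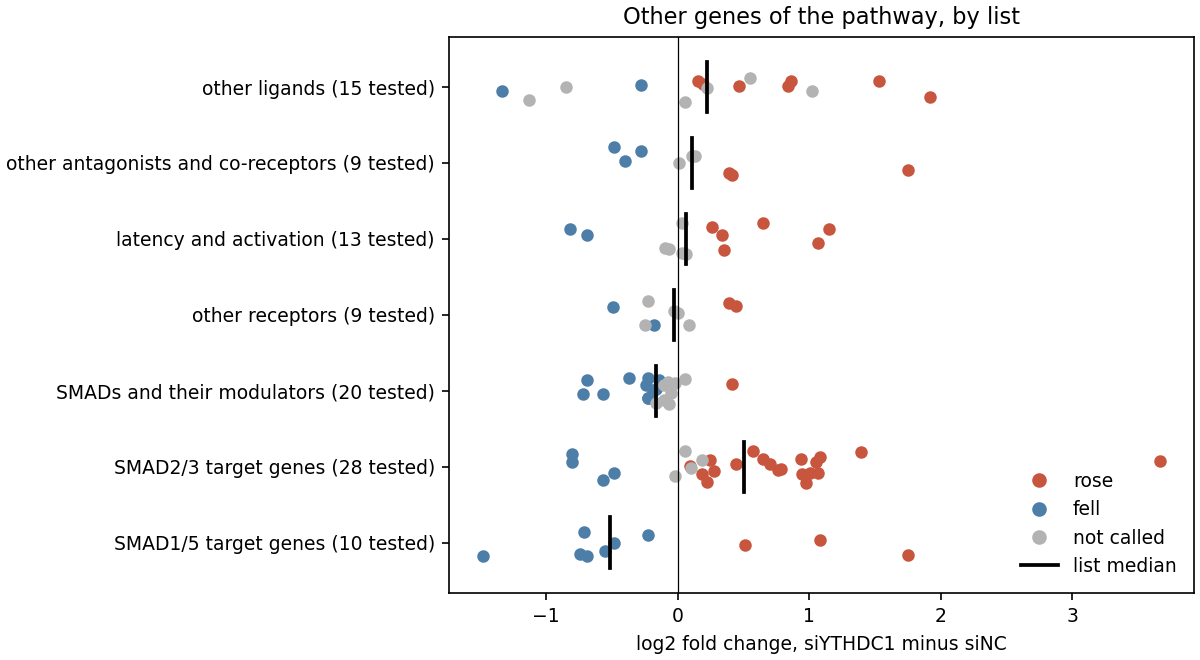
Log2 fold change (siYTHDC1 minus siNC) of each tested gene in 7 lists of the pathway, with rises in red, falls in blue, uncalled genes in grey and the median of each list as a black line. The median was 0.51 for SMAD2/3 target genes and -0.52 for SMAD1/5 target genes, against about 0 over all genes tested. All lists were chosen with earlier results of these data known.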

How the data were processed

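The authors deposited raw read counts per Ensembl gene, with 6 columns, each tied to its library through the title its name matches (0 columns were left unused). Per the labels' protocols, total RNA went into a directional library kit, and hg38 is the build that the submitters' processing notes name. Not given in the sources used here: aligner, counter, annotation and strand setting. A table pairing Ensembl identifiers with symbols gave the gene names except for 101 genes named from GENCODE release 29, which also gave positions and exons.

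edgeR 4.0.16 (R 4.3.3) was run on the counts with TMM scaling, its default low-count filter and the group as the only term, with Benjamini-Hochberg adjustment over the 17372 genes tested. The SE is the log2 fold change divided by the root of the F statistic. CPM values are counts per 1000000 after TMM scaling. On simulated counts for the same 17372 genes, 84 of 100 genes changed by 1 on the log2 scale and 68 of 100 changed by 0.5 were called, with 9 false calls. No other genes were changed there, whereas 53.4% of genes tested were called in the data. These figures therefore do not give the recovery or false calls of this comparison. Other settings were 3 scalings, DESeq2 1.42.0, limma-voom (limma 3.58.1), 2 other filters, a replicate block, 1 library left out at a time and, chosen after seeing the data, leaving out both siNC replicate 2 and siYTHDC1 replicate 1.

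The genes and lists were chosen with earlier results of these data known. Named genes are the 10 genes, YTHDC1, their neighbours within 5 kb, the 5 genes most like INHBA, and of each list up to 4 called genes that changed most (with at least 1 CPM on average), plus each direction with 5 or fewer calls; exceptions are marked, some genes that the rule names are not reported here, and some neighbours with few or 0 counts are not described.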

Additional observations from a re-analysis of the deposited data

How the results depend on the processing

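Over 15 alternative fits, 9 of the 10 genes kept their sign and call. SMAD7 kept its sign and passed in 5. Of 884 refits of other named genes, 40 lost the call without a change of sign, and 2 reversed, in YTHDC1 and in ITGB8. The uncalled log2 fold change of ITGB8 ran from -0.026 to 0.085 when 1 library was left out. The counts of all genes called, of the 10 genes called and of the 7 lists combined stayed within 1.5 times of those reported, but in single lists small counts went from 2 to 1: rises of other receptors in 10 of 15 fits (TGFBR3), their falls in 3 (BMPR2) and falls of other ligands in 3 (BMP4). The median shift of all genes stayed near 0 under every scaling. With the replicate block, 7 of the 10 genes rose and 3 fell, SMAD7 being the added fall (edgeR adjusted p = 0.0443). Deviations of same-numbered libraries from their group means correlated at 0.005, -0.007 and -0.017. Such values cannot tell whether these libraries were prepared together. The YTHDC1 change, a fall in the fit of all 6 libraries, ran from -4.17 without siYTHDC1 replicate 1 to 0.31, reversed, without siNC replicate 2. Without both that library and siYTHDC1 replicate 1, 7 of the 10 genes rose and 2 fell. With the longest transcript as length, INHBA ranked 3 in siNC and 2 in siYTHDC1, and 8 of 12 ratios within a group moved by more than 1 SD, alike in both groups, which left the differences between groups as reported. Precision rests on 3 libraries per group, and counts under about 100, as for WFIKKN1 in siNC, leave its log2 fold change between 2.48 and 2.74 when 1 library is left out.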

Other observations

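The genes whose levels followed INHBA most closely over the 6 libraries were COL17A1, PYCR1, SDC4, KHNYN and SSR3, with Pearson's r of log2 CPM from 0.9995 to 0.9996. They were the 5 highest of 11422 genes averaging at least 5 CPM. All 5 rose, by 0.47 for SSR3 to 1.68 for SDC4 on the log2 scale. COL17A1 encodes a hemidesmosomal collagen, PYCR1 an enzyme of proline synthesis and SDC4 a cell-surface proteoglycan. Since the 6 libraries form 2 groups, r mostly restates the difference between the groups, and 1095 genes reached an r of at least 0.98.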
